A study of Mus musculus with 18 samples.

Results

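The genes described here are 4 cystatins (Cst8, Cst9, Cst11 and Cst12) and 3 genes of the WFDC family of small secreted inhibitors (Eppin, Wfdc10 and Wfdc15a), in RNA of the mouse testis. They are 7 of the 20979 uniquely named genes of the table, and they were chosen by name with measured values of these libraries already known. Their levels and differences are therefore a description, and the counts of them past a threshold of the fit over all genes are printed only beside the same counts for all genes, with nothing supported by them. The RNA came from 10-week-old mice of the outbred ICR stock, and its 18 libraries fell into 6 groups of 3. The control group and the AOS group (AOS at 10 mg/kg, an abbreviation that the labels do not spell out) had no diet or toxin named. The other 4 groups all carried a high fat diet together with STZ (streptozotocin, a toxin of insulin-producing cells). Of these, HFD_STZ had nothing added and HFD_STZ_AOS had AOS at 10 mg/kg. HFD_STZ_AOS_FMT had fecal microbiota transferred from donors given AOS at 10 mg/kg, and HFD_STZ_control_FMT had fecal microbiota transferred from control donors. The labels of these last groups add only AOS10mg/kg-FMT and control-FMT, and are read here as naming the donors. The question named in the title of the series was what such a transfer does to a testis harmed by diet and STZ. No label says that the 3 libraries of a group came from separate animals, so the spread between them, and each p-value, may be technical in part.

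Many cystatins are secreted proteins that sit in the active-site cleft of cysteine proteases, such as many of the cathepsins, and block them. Cst8, Cst11 and Cst12 belong to the CRES subgroup (their alternative names are CRES, CRES2 and CRES3), which lacks part of the classical cystatin inhibitory sites and is known from germ cells and from the epididymis, the duct in which sperm mature after leaving the testis. Cst9, or testatin, is a cystatin of the testis known from the Sertoli cells that support the germ cells. WFDC proteins carry a compact disulfide-bonded fold, the whey acidic protein domain, and many of them inhibit serine proteases. Eppin joins such a domain to a Kunitz inhibitor domain and coats the sperm surface, where it binds semen proteins. The functions of Wfdc10 and Wfdc15a are less well described.

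All 7 genes lie on chromosome 2, in a pair of clusters of related genes, given here in GRCm38/mm10 with GENCODE vM21. The cystatins stand close together: Cst11 at chr2:148768609-148771497 on the minus strand, then Cst12 at chr2:148789361-148793546, Cst8 at chr2:148798785-148805595 and Cst9 at chr2:148835147-148838738, all 3 on the plus strand. Wfdc15a lies at chr2:164198863-164200130 and Eppin at chr2:164588343-164593594, both on the minus strand, and Wfdc10 at chr2:164656046-164657368 on the plus strand. Each is protein-coding, and RPKM counts reads over a gene's exons per length. Of the 36-base stretches of the 7 genes' annotated transcripts, 0 were found in the transcripts of any other gene, so reads of that length could be told apart from those of paralogs. Wfdc10 overlaps Wfdc9 on the opposite strand. The use of strand in counting was not given, but Wfdc9 was listed at only 0.63 to 2.62 RPKM.

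Promoter sequences are shown for a pair of WFDC genes whose levels moved together across libraries (Eppin and Wfdc10) and for the neighbouring genes Wfdc15a and Wfdc15b. Wfdc15a was at 152.6 to 226 RPKM in all 18 libraries. Wfdc15b was at 9.55 to 16.2 RPKM in 4 libraries and at 1.09 or less in the other 14. The sequences run from 250 bases before to 50 bases after the start, 5′ to 3′ on the gene's own strand, from RefSeq on GRCm38.p6. The positions are chr2:164593522-164593821 (minus) for Eppin, chr2:164655796-164656095 (plus) for Wfdc10, chr2:164200068-164200367 (minus) for Wfdc15a and chr2:164221614-164221913 (minus) for Wfdc15b. Capitals mark matches to any of 4 motifs searched on both strands, namely TATAAA of the TATA box, TGACG of the cyclic AMP response element, TGTTCT of the androgen receptor's motif and AGATAA of the GATA factors. The last of these reads TTATCT where it lies on the other strand.
Eppin: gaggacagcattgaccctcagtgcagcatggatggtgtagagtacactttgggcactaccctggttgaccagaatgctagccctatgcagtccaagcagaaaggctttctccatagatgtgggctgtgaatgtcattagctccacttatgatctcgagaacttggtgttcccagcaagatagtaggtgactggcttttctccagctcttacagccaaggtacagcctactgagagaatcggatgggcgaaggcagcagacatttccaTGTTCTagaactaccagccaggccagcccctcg
Wfdc10: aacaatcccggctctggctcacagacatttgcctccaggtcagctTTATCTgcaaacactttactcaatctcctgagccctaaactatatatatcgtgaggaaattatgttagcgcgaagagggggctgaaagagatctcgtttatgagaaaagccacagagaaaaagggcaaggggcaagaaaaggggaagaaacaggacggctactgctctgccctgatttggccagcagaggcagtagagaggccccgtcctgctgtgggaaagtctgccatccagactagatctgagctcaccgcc
Wfdc15a: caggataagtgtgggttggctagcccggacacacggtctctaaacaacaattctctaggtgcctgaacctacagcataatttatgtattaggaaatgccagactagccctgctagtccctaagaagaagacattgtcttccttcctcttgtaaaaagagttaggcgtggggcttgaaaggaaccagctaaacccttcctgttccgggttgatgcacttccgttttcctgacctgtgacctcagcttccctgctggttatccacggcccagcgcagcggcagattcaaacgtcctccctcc
Wfdc15b: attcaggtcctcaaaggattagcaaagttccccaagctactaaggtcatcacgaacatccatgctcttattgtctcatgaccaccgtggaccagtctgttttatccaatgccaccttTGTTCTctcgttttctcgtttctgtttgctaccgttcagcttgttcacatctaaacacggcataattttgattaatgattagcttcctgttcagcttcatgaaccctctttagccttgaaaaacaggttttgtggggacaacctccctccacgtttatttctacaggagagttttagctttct

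The promoter table matched 6 of the 7 genes, all but Cst11. The letters TGTTCT stood in 1 of these 6 promoters (Eppin, 17 bases after the start) and in 19.0% of all 32851 promoters of that length. AGATAA stood in 1 of 6 (Wfdc10, 205 bases before the start) and in 11.2% of all. TATAAA stood in 0 of the 6, against 13.6% of all promoters. TGACG also stood in 0 of the 6, against 20.8%. Wfdc15b held 1 match to TGTTCT, at 133 bases before the start, and Wfdc15a held 0 matches to the 4 motifs.

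The deposited RPKM values (reads scaled to transcript length and to the library's total) summed to 588081 to 646822 per library, and 13022 to 13490 genes reached 1 RPKM. Depth was not given. The value of 1 Cst11 read, 0.14 to 0.148 RPKM, together with its annotated 615-base transcript put it at about 10962000 to 11614000 reads, and read numbers below rest on that estimate. Had the authors counted Cst11 over another length, the depth and the read numbers of the other members would change in proportion, but not the read numbers of Cst11. The libraries were testis by their defining markers, with the spermatid gene Prm1 at 11650 to 17850 RPKM, the Leydig cell gene Insl3 at 2119 to 4516 and the Sertoli cell gene Clu at 451 to 585. Some libraries also held RNA of genes known from the epididymis. Crisp1, a secretory protein of that duct, was above 100 RPKM in 4 libraries (control 3, HFD_STZ_AOS 3, HFD_STZ_AOS_FMT 3 and HFD_STZ_control_FMT 2) and between 0.05 and 23.1 in the other 14. Gpx5 and Spag11b, genes of the initial part of the duct, reached 22.2 and 12.6 RPKM in HFD_STZ_AOS_FMT 1, 10.0 and 4.17 in HFD_STZ_AOS_FMT 3 and 0.86 and 0.14 in HFD_STZ_AOS_FMT 2. In each of the other 15 libraries they were at 0.26 or less and 0.04 or less.

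Of the cystatins, Cst8 was the most abundant. Its levels were 273.9, 239.8 and 272.9 RPKM in the control libraries, 343.2, 286.3 and 320.4 under AOS, and 263.4, 282.6 and 269.0 in HFD_STZ. They were 305.4, 291.5 and 361.7 in HFD_STZ_AOS, 355.4, 306.9 and 336.9 in HFD_STZ_AOS_FMT, and 379.0, 280.9 and 290.8 in HFD_STZ_control_FMT. The control and HFD_STZ libraries were thus the low ones, with group means of 262 ± 19.4 and 272 ± 9.92 (SD, n = 3), and neither overlapped with AOS, HFD_STZ_AOS or HFD_STZ_AOS_FMT, whose means were 317 ± 28.6, 320 ± 37.2 and 333.1 ± 24.5. HFD_STZ_control_FMT, at 317 ± 54.0, overlapped with HFD_STZ through its library 2. From the highest group to the lowest, the only gap between neighbouring groups lay between AOS and HFD_STZ. Over all 18 libraries Cst8 held rank 334 among genes by its median level and varied by 1.58-fold.

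Cst9 varied more than the other abundant members. Its levels were 108.2, 41.5 and 95.9 RPKM in control, 89.6, 59.3 and 105.9 under AOS, and 99.95, 74.2 and 90.5 in HFD_STZ. They were 92.9, 89.8 and 126.6 in HFD_STZ_AOS, 111.2, 113.5 and 90.8 in HFD_STZ_AOS_FMT, and 125.1, 50.7 and 74.4 in HFD_STZ_control_FMT. Low libraries stood in several groups (control 2, HFD_STZ_control_FMT 2 and AOS 2), and every pair of neighbouring groups overlapped. The coefficient of variation was 26.1% over the 18 libraries, where sampling of about 322 to 982 reads alone would give 3.76%. Of its variance on the log2(RPKM + 1) scale, 17.97% lay between the 6 groups, against a median of 39.5% over all 13874 genes tested.

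Cst12 was steadier. It was at 74.5, 69.4 and 57.2 RPKM in control, 67.6, 74.4 and 67.0 under AOS, and 74.3, 77.3 and 74.0 in HFD_STZ. It was at 79.7, 78.1 and 101.7 in HFD_STZ_AOS, 81.5, 79.5 and 71.4 in HFD_STZ_AOS_FMT, and 78.2, 73.9 and 64.9 in HFD_STZ_control_FMT. Library 3 of HFD_STZ_AOS stood above all others and control 3 below all others, and both had Crisp1 above 100 RPKM. HFD_STZ_AOS lay wholly above HFD_STZ (86.5 ± 13.2 against 75.2 ± 1.85, SD, n = 3), by a gap of which the nearest libraries were 78.1 and 77.3.

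Cst11 was at 1.33 RPKM or less in 16 libraries and higher in 2. It was listed at 0.44, 0 and 0.29 RPKM in control, 0.71, 0 and 0.14 under AOS, 0.44, 1.33 and 0.29 in HFD_STZ, and 0.73, 0 and 0.86 in HFD_STZ_AOS. It was at 11.2, 0.89 and 5.72 in HFD_STZ_AOS_FMT and at 0.29, 0.14 and 0.29 in HFD_STZ_control_FMT. The levels of HFD_STZ_AOS_FMT libraries 1 and 3 corresponded to about 76 to 80 and 39 to 41 reads, and no other library had more than 9. A value of 0, found in 3 libraries, allows up to 3 reads, or 0.45 RPKM, by counting error alone. Cst11 reached 1 RPKM in exactly the 3 libraries that the filter on low values required, so leaving out any of these takes it out of the test.

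**Figure D1:**
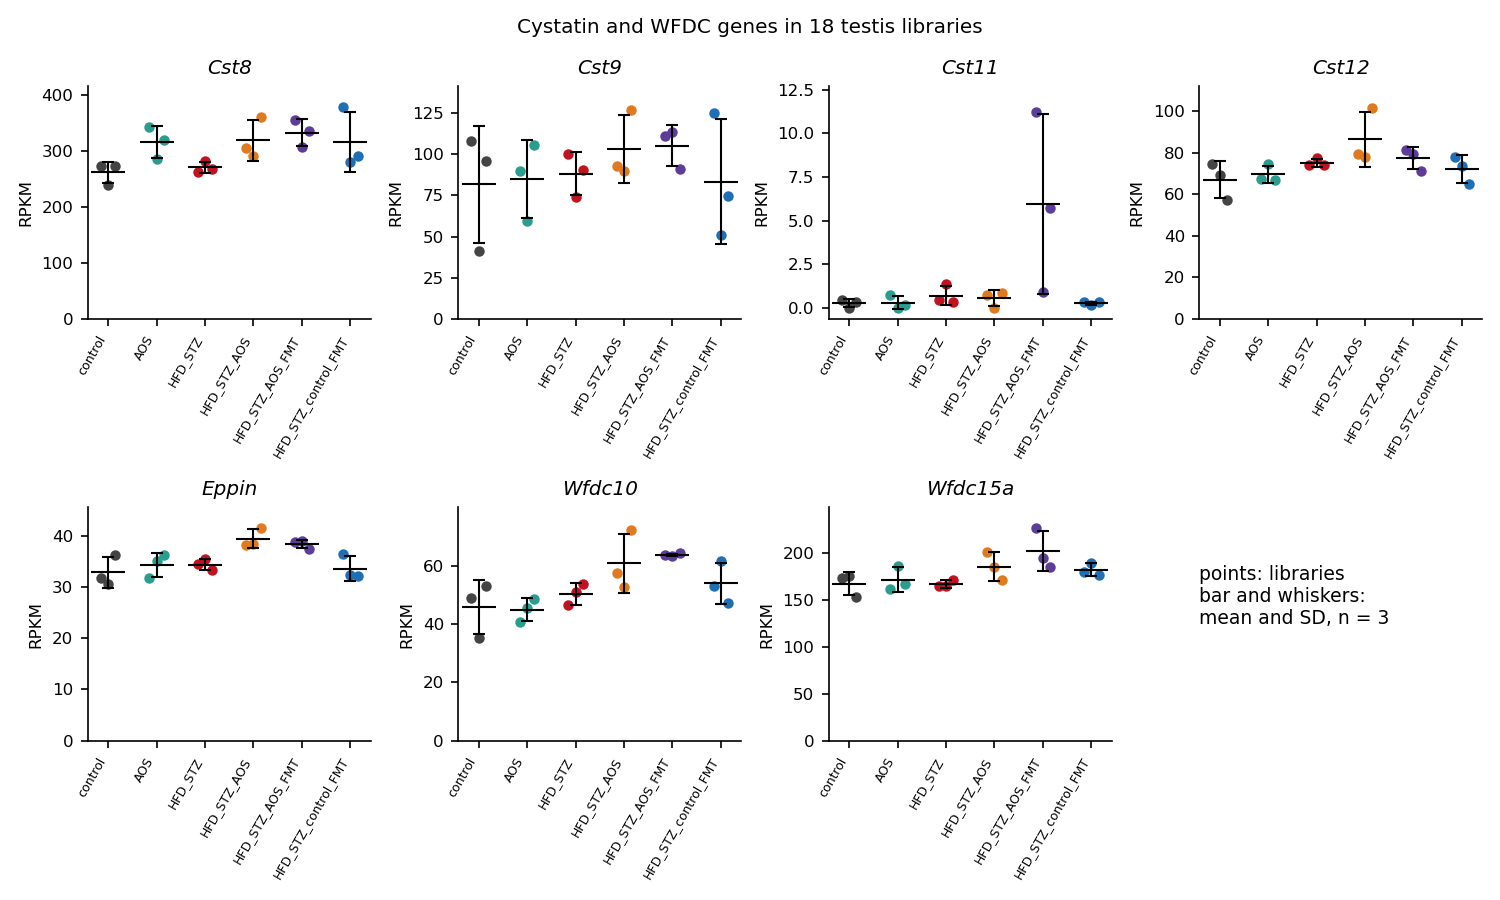
Levels of the 7 genes in RPKM (vertical axes, from 0) in each of the 18 libraries, by group (horizontal axes). Points are libraries and the bar with whiskers is the mean and SD of 3. Cst8, Cst12, Eppin, Wfdc10 and Wfdc15a keep within a 2.05-fold range, Cst9 spreads over 3.05-fold, and Cst11 is high in 2 libraries of HFD_STZ_AOS_FMT alone.

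Among the WFDC genes, Eppin was the least variable member, with a coefficient of variation of 8.74% against 5.67% from read sampling alone. It was at 31.7, 30.5 and 36.2 RPKM in control, 31.7, 34.9 and 36.1 under AOS, and 34.4, 35.4 and 33.2 in HFD_STZ. It was at 38.2, 38.3 and 41.5 in HFD_STZ_AOS, 38.8, 38.9 and 37.5 in HFD_STZ_AOS_FMT, and 36.3, 32.3 and 32.1 in HFD_STZ_control_FMT. The 6 libraries of HFD_STZ_AOS and HFD_STZ_AOS_FMT were the 6 highest of the 18, and the 4 other groups overlapped each other. Group means ran from 32.8 ± 3.01 in control to 39.4 ± 1.87 in HFD_STZ_AOS (SD, n = 3). Beside this, the summed level of 17 Sertoli cell genes was 1119 to 1133 RPKM in HFD_STZ, 1134 to 1219 in HFD_STZ_AOS, 1111 to 1277 in HFD_STZ_AOS_FMT and 1039 to 1137 in HFD_STZ_control_FMT, and 1001 to 1098 and 1006 to 1087 in control and AOS. Clu and Defb19, with means of 507 and 275 RPKM, made up much of this sum, and the list did not move as one. Of its 16 genes tested, 7 were higher in HFD_STZ_AOS than in HFD_STZ (median log2 difference -0.021). In HFD_STZ_AOS_FMT 8 of the 16 were higher than in HFD_STZ (median 0.001). The part of Sertoli cell RNA in the levels of Eppin was not tested. In bulk tissue, fewer cells of a type and less RNA per cell cannot be told apart.

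Wfdc10 had the same groups at the top. Its levels were 48.9, 35.3 and 53.1 RPKM in control, 40.7, 45.3 and 48.5 under AOS, and 46.3, 50.8 and 53.7 in HFD_STZ. They were 57.5, 52.7 and 72.1 in HFD_STZ_AOS, 63.5, 63.3 and 64.2 in HFD_STZ_AOS_FMT, and 53.0, 61.4 and 47.2 in HFD_STZ_control_FMT. The 3 libraries of HFD_STZ_AOS_FMT lay within 1 RPKM of each other (63.7 ± 0.467, SD, n = 3) and above every library of control, AOS, HFD_STZ and HFD_STZ_control_FMT. HFD_STZ_AOS held both a higher and 2 lower libraries than these.

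Wfdc15a was the most abundant of the 3 WFDC genes. It was at 173.4, 175.2 and 152.6 RPKM in control, 160.8, 186.2 and 166.7 under AOS, and 164.6, 164.1 and 171.1 in HFD_STZ. It was at 200.6, 184.5 and 170.4 in HFD_STZ_AOS, 226, 194.1 and 185 in HFD_STZ_AOS_FMT, and 179.8, 189.2 and 176.2 in HFD_STZ_control_FMT. Both groups given a transfer lay wholly above HFD_STZ, whose mean was 167 ± 3.91, and every pair of neighbours in the order of the groups overlapped. The highest library of Wfdc15a, HFD_STZ_AOS_FMT 1, was also the highest in the summed level of 11 spermatid genes (63990 RPKM), and the lowest, control 3, was also the lowest in that sum (47693 RPKM). The part of the spermatid RNA in the levels of Wfdc15a was not tested.

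The 6 genes other than Cst11 were partly high and low in the same libraries. HFD_STZ_AOS 3 was the highest of the 18 libraries for 4 of the 6 (Cst9, Cst12, Eppin and Wfdc10), with a median of 130% of each gene's own median over all libraries. Control 2 was the lowest for 4 of the 6 (Cst8, Cst9, Eppin and Wfdc10), with a median of 83.8%. HFD_STZ_AOS_FMT 1 stood at 121%, and the other 15 libraries at 89.5% to 110%. HFD_STZ_AOS 3 was 1 of the 4 libraries with high Crisp1, it had the highest sum of 18 genes of simple duct epithelium (68.5 RPKM, where the libraries' median was 53.5), and it had the highest level of Cst3 (309.5 RPKM). Their part in the levels of the 6 genes was not tested. The other 3 libraries with high Crisp1 were not high for these genes as a group, and Cst12 and Wfdc15a were at their lowest in one of them.

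**Figure D2:**
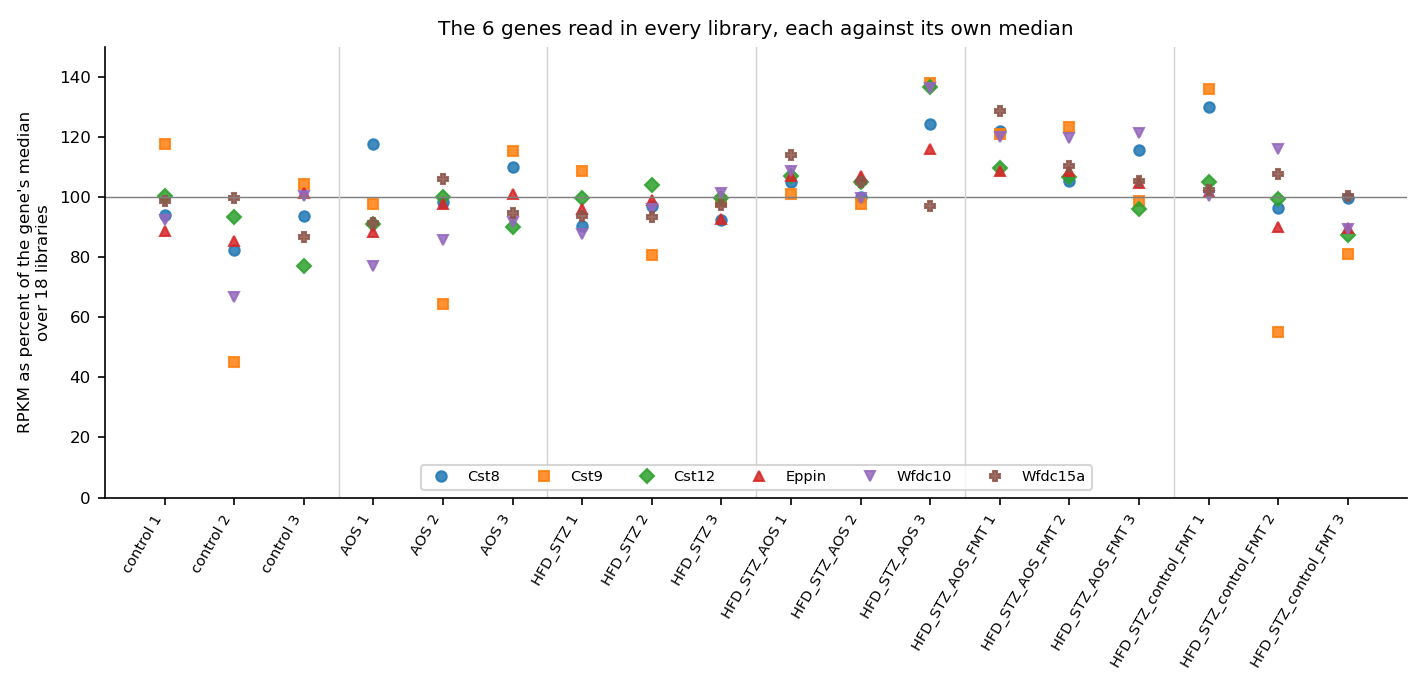
Level of each of 6 genes in each library as a percent of that gene's median over the 18 libraries (vertical axis), with libraries in group order along the horizontal axis and a line at 100%. HFD_STZ_AOS 3 stands highest at a median of 130% over the 6 genes and control 2 lowest at 83.8%.

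Across the 18 libraries, the 21 pairs of the 7 genes had Spearman correlations from 0.03 (Cst9 with Wfdc15a) to 0.75 (Eppin with Wfdc10, Pearson's r 0.76). The next were 0.66 for Cst12 with Eppin and 0.63 for Cst9 with Eppin. These are descriptions over libraries that share groups, scaling and tissue makeup. Wfdc15a had its highest value with Cst12 (0.49). Among all genes tested, the 5 most like Eppin by Spearman's rho included Aard (0.84), Gm9112 (0.81), Rps26 (0.80) and Cldn34b2 (0.80). Aard is a gene of the Sertoli cell list, and Rps26 codes for a ribosomal protein. For Wfdc10 they were Ppib (0.88), Atp6v0e (0.86), Rpl36a (0.86), Snx8 (0.82) and Rpl10 (0.82), and Ppib, a folding enzyme of the secretory pathway, was also the nearest by Pearson's r (0.89). For Wfdc15a they were Ndufc1, Atp5c1, Atp5j2 and Ndufb4 (each 0.88) and Mrpl40 (0.87), which all code for mitochondrial proteins.

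Genes most like the cystatins were of mixed kinds. For Cst8 they were Proc, Gfer, Prkg1, Gm4984 and Tex33, at 0.82 to 0.83. For Cst9 they were Gng3, Basp1, Vcpkmt, Glipr1l1 and Hist1h4a, at 0.70 to 0.76. For Cst12 they were Ube2f (0.90), LOC105244208 (0.89), Gm20153 (0.87), Defb36 (0.86) and Chmp2a (0.86), and Defb36, a beta-defensin gene, was the nearest by Pearson's r of log2 values (0.96). For Cst11 the ranks among values near 0 carry little information. By rank the nearest were Ccdc115, Dpp9, Mterf1a, Mgmt and Aig1 (0.75 to 0.84). By Pearson's r the 5 nearest included Defb20 (0.94), Defb47 (0.94), Defb41 (0.85) and Kap (0.81), with 0 genes shared between these lists of 5, and those r values rest on the 2 libraries high in Cst11.

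The 2 libraries highest in Cst11 were also the 2 highest in Gpx5 and Spag11b, while HFD_STZ 2, with Cst11 at 1.33 RPKM, had Gpx5 at 0.26 or less and Spag11b at 0.04 or less. Gpx5, a glutathione peroxidase secreted by the epididymis, was at 22.2, 0.86 and 10.0 RPKM in HFD_STZ_AOS_FMT 1, 2 and 3, where Cst11 was at 11.2, 0.89 and 5.72. The lipocalin Lcn9, a gene of the same stretch of duct, was at 5.69, 0.21 and 2.46 there, and at 0.10 or less in the other 15 libraries. Lcn8 and Lcn10 were at 0 in all 15 and reached 0.91 and 1.52 in HFD_STZ_AOS_FMT 1. Of 35 epididymal genes of a marker list that were in the table, 21 reached 1 RPKM somewhere, 9 of these were highest in HFD_STZ_AOS_FMT 1 and 4 in HFD_STZ_AOS_FMT 3. The summed level of the list was 68.9 to 504 RPKM in HFD_STZ_AOS_FMT, 38.6 to 331 in HFD_STZ_control_FMT, 38.0 to 453 in HFD_STZ_AOS, 36.2 to 40.7 in HFD_STZ, 34.2 to 35.3 under AOS and 40.7 to 465 in control. Part of it is not particular to the duct, since Aqp9 was at 23.96 to 30.4 in every library. The part of epididymal RNA in the levels of Cst11 was not tested.

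Crisp1 followed another set of libraries. It was at 158.8, 156.7, 164.7 and 116.6 RPKM in control 3, HFD_STZ_AOS 3, HFD_STZ_AOS_FMT 3 and HFD_STZ_control_FMT 2, where Cst11 was at 0.29, 0.86, 5.72 and 0.14. In HFD_STZ_AOS_FMT 1, where Cst11 was highest, Crisp1 was at 0.99. Genes of the WFDC cluster that followed Crisp1, named here after their values were seen, were Wfdc13, Wfdc15b, Wfdc16 and Spint3. Wfdc13 was at 16.2 to 19.7 RPKM in the 4 libraries high in Crisp1 and at 3.30 or less in the other 14. Wfdc15b was at 9.55 to 16.2 in those 4 and at 1.09 or less elsewhere, and it was at 0.47 in HFD_STZ_AOS_FMT 1. Wfdc15a, its neighbour, was at 152.6 to 189.2 in those 4 libraries and at 160.8 to 226 in the other 14. Cst8, Cst9, Eppin and Wfdc10 also overlapped between these sets of libraries. Eppin was at 32.3 to 41.5 in the 4 and at 30.5 to 38.9 in the 14. Wfdc10 was at 53.1 to 72.1 in the 4, all above the median of 49.8 in the 14, which ran from 35.3 to 63.5, and the part of the RNA that goes with Crisp1 in its levels was not tested.

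**Figure D3:**
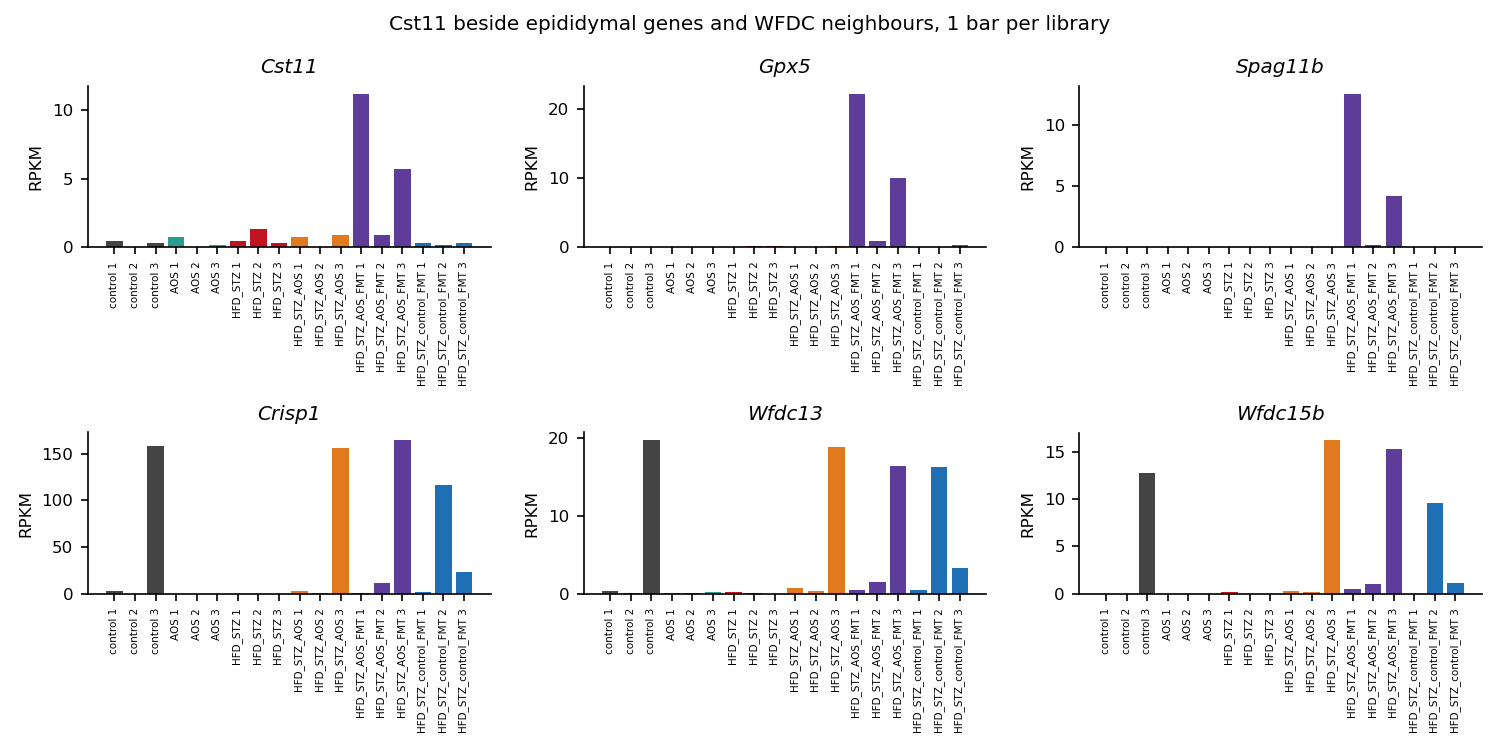
Levels in RPKM (vertical axes, from 0) of Cst11, the epididymal genes Gpx5, Spag11b and Crisp1, and the cluster genes Wfdc13 and Wfdc15b, with 1 bar per library coloured by group. Cst11, Gpx5 and Spag11b are highest in HFD_STZ_AOS_FMT 1 and 3, while Crisp1, Wfdc13 and Wfdc15b are highest in control 3, HFD_STZ_AOS 3, HFD_STZ_AOS_FMT 3 and HFD_STZ_control_FMT 2.

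The clusters themselves differed in how many of their genes were measured in the testis. The cystatin cluster held 9 family genes over 125 kb (chr2:148750358-148875692), of which 8 had a median of at least 10 RPKM and 1, Cst11, was under 1. Its other abundant genes were Cst3 (median 159 RPKM), the broadly expressed cystatin C, Cst13 (144) and Cstl1 (115). The WFDC cluster, with its Spint, Svs and Slpi genes, held 25 over 570 kb (chr2:164176327-164745931), of which 5 had a median of at least 10 RPKM and 15 were under 1. Those 5 were Wfdc15a, Eppin, Wfdc10, Wfdc3 and Wfdc6a. Between them lay 6 seminal vesicle genes. Svs2, Svs3a, Svs3b and Svs6 had medians of 0.04 to 0.18, Svs4 one of 0.715, and Svs5 one of 2.675 with at least 1 RPKM in all 18 libraries. The members other than Cst11 were thus among the minority of the WFDC cluster and the majority of the cystatin cluster that had abundant RNA.

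**Figure D4:**
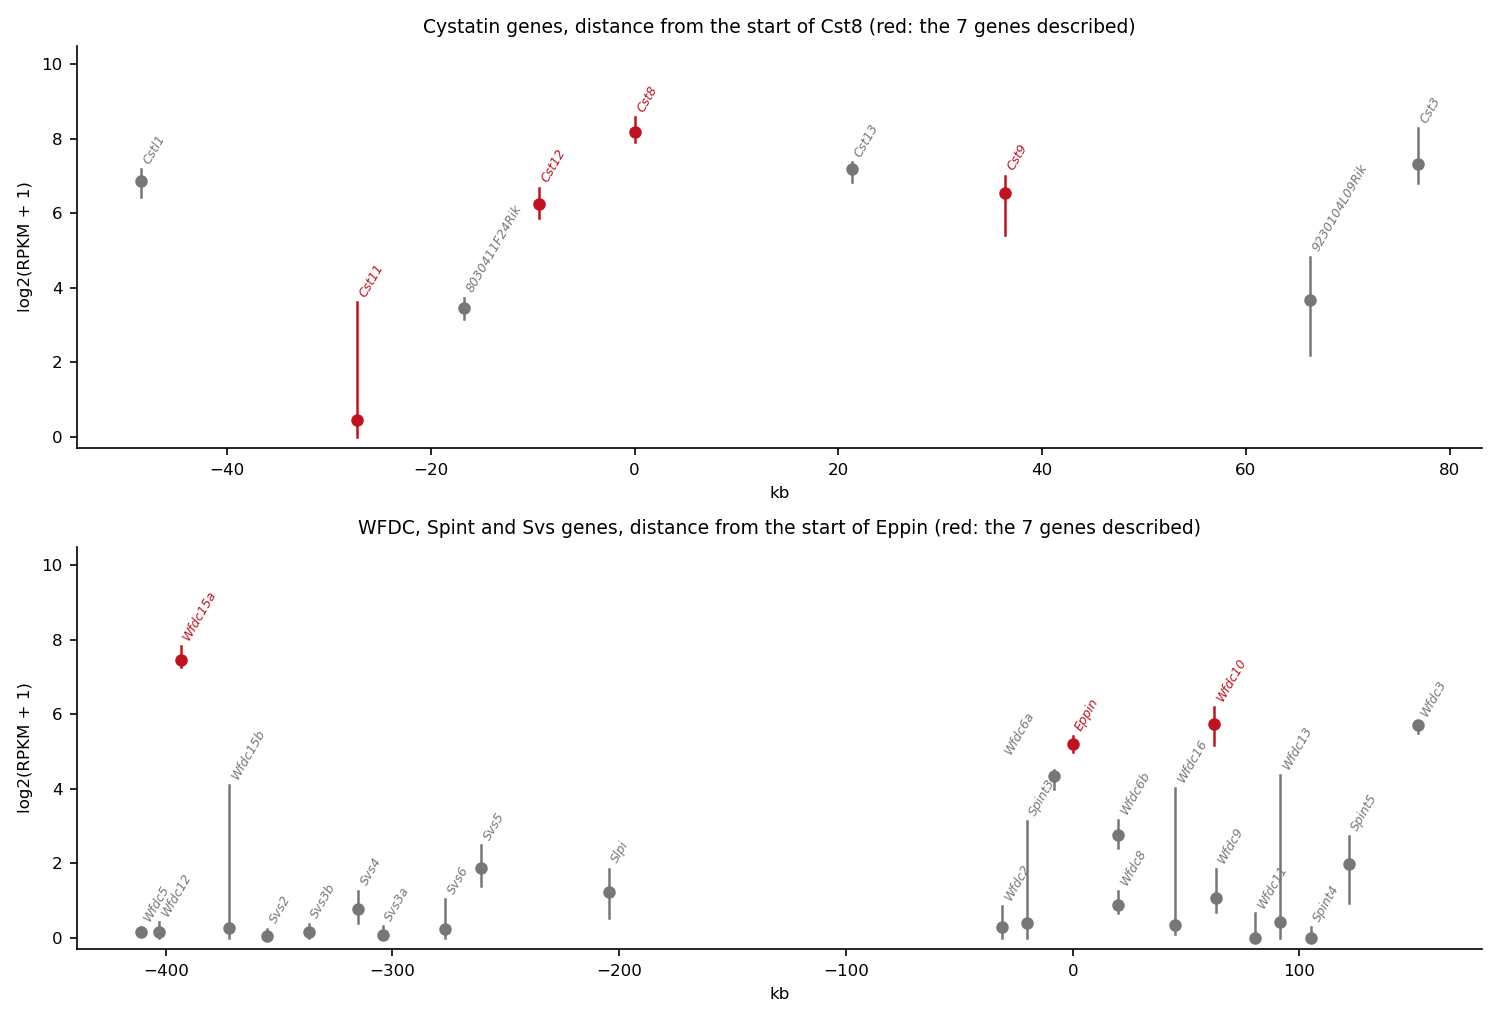
Median level as log2(RPKM + 1) (points, vertical axis) and range over the 18 libraries (lines) of the genes of both clusters, by distance in kb from the start of Cst8 (upper panel) or Eppin (lower panel). Members are red and other family genes grey. Cst11 stands low between abundant cystatins, and Wfdc15a, Eppin and Wfdc10 stand above most of their neighbours.

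For the comparisons between groups, differences are given as log2(RPKM + 1) with the standard error of limma's fit over all 18 libraries. This scale understates changes of low genes such as Cst11. The standard error pools the spread of all 6 groups. Cst11 had an SD of 5.17 RPKM in HFD_STZ_AOS_FMT and of 0.0866 to 0.562 in the other groups. Its standard error therefore understates the spread of HFD_STZ_AOS_FMT, and its unadjusted p in comparisons with that group rests on the same error. A gene was called at an adjusted p under 0.05 over 13874 genes. HFD_STZ was compared with control first. Of the 7 genes, 0 were called, and 0 of all genes (0%), with 1151 genes (8.3%) and 0 of the 7 at an unadjusted p under 0.05. The differences were 0.05 ± 0.11 for Cst8, 0.21 ± 0.33 for Cst9, 0.41 ± 0.47 for Cst11, 0.17 ± 0.10 for Cst12, 0.07 ± 0.07 for Eppin, 0.15 ± 0.14 for Wfdc10 and -0.0019 ± 0.078 for Wfdc15a (SE, n = 3 in each group). The groups overlapped for all 7, where 11.7% of all genes lay wholly higher and 4.53% wholly lower. Without control 2 the differences of Cst8, Cst9 and Wfdc10 turned to -0.0099, -0.22 and -0.022, and that of Wfdc15a turned to 0.03.

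AOS was compared with control, which shares the control libraries. Of the 7 genes 0 were called, and 0 of all genes (0%), with 1923 genes (13.9%) and 1 of the 7, Cst8, at an unadjusted p under 0.05. Cst8 was higher by 0.27 ± 0.11 and its groups did not overlap, as was so for 7.76% of all genes in that direction and 14.8% in the other, which held 0 of the 7. Cst9 differed by 0.12 ± 0.33, Cst12 by 0.06 ± 0.10, Eppin by 0.06 ± 0.07, Wfdc15a by 0.03 ± 0.08, Cst11 by 0.02 ± 0.47 and Wfdc10 by -0.01 ± 0.14. Wfdc10 turned to 0.02 under scaling of the libraries by median ratios. The signs of all but Cst8 and Eppin turned when 1 control or AOS library was left out, furthest for Cst9, which went to -0.30 without control 2. The spermatid sum was 58835 to 60453 RPKM under AOS and 47693 to 53828 in control, and its part in the difference of Cst8 was not tested.

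HFD_STZ_AOS was compared with HFD_STZ. Here 0 of the 7 and 0 of all genes (0%) were called, with 1734 genes (12.5%) and 2 of the 7, Cst8 and Eppin, at an unadjusted p under 0.05. The 6 abundant genes were all higher in HFD_STZ_AOS, by 0.23 ± 0.11 for Cst8, 0.22 ± 0.33 for Cst9, 0.19 ± 0.10 for Cst12, 0.19 ± 0.07 for Eppin, 0.26 ± 0.14 for Wfdc10 and 0.15 ± 0.08 for Wfdc15a, while Cst11 differed by -0.14 ± 0.47 and turned to 0.14 without HFD_STZ_AOS 2. Cst8, Cst12 and Eppin lay wholly higher, as did 7.37% of all genes, and 0 of the 7 lay wholly lower, as did 9.8%. Without HFD_STZ_AOS 3 and the other 3 libraries high in Crisp1, the differences were 0.14 for Cst8, 0.06 for Cst9, 0.07 for Cst12, 0.15 for Eppin, 0.13 for Wfdc10 and 0.21 for Wfdc15a. For Cst8, Cst9, Cst12 and Wfdc10 this is a change of more than 1.5 times, and it rests on library 3 of HFD_STZ_AOS. The spermatid sum was 55074.7 to 63134.3 RPKM in HFD_STZ_AOS and 49284.6 to 54932.5 in HFD_STZ, without overlap. All 11 spermatid genes were higher in HFD_STZ_AOS (median log2 difference 0.13). The part of spermatid RNA in the differences of the 7 genes was not tested.

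HFD_STZ_AOS_FMT was compared with the same HFD_STZ libraries. Of the 7 genes 0 were called and of all genes 2 (0.0144%), with 2006 genes (14.5%) and 5 of the 7 at an unadjusted p under 0.05. All 7 were higher in HFD_STZ_AOS_FMT, and as they were chosen with these values known, nothing is read from this. The differences were 0.29 ± 0.11 for Cst8, 0.25 ± 0.33 for Cst9, 1.72 ± 0.47 for Cst11, 0.04 ± 0.10 for Cst12, 0.16 ± 0.07 for Eppin, 0.34 ± 0.14 for Wfdc10 and 0.27 ± 0.08 for Wfdc15a. Cst8, Eppin, Wfdc10 and Wfdc15a lay wholly higher, as did 7.82% of all genes, and 0 of the 7 wholly lower, as did 11.6%. Cst11 overlapped, since HFD_STZ_AOS_FMT 2 (0.89 RPKM) was below HFD_STZ 2 (1.33 RPKM). Single libraries left out moved Cst9 to 0.14 (without HFD_STZ 2), Cst12 to 0.0028 (without HFD_STZ_AOS_FMT 1) or 0.10 (without HFD_STZ_AOS_FMT 3), and Cst11 to 2.48 without HFD_STZ_AOS_FMT 2, the 1 low library of its group. The summed level of 8 adipose genes was 56.9 to 158 RPKM in HFD_STZ_AOS_FMT and 16.3 to 28.4 in HFD_STZ. It was as high in the other transfer group, at 48.0 to 163 in HFD_STZ_control_FMT, and was 21.1 to 129 in HFD_STZ_AOS. The spermatid sum was 53602.1 to 63990.4 RPKM in HFD_STZ_AOS_FMT and 49284.6 to 54932.5 in HFD_STZ, and these ranges overlap. All 11 spermatid genes were higher in HFD_STZ_AOS_FMT (median log2 difference 0.109). In HFD_STZ_control_FMT the sum was 53926.8 to 59503.9, and 9 of the 11 genes were higher than in HFD_STZ (median 0.084). The parts of adipose and spermatid RNA in the differences of the 7 genes were not tested.

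HFD_STZ_control_FMT, compared with HFD_STZ as well, differed less for most of the 7. None was called (0 of 7), and 1 of all genes was (0.00721%), with 2243 genes (16.2%) and 0 of the 7 at an unadjusted p under 0.05. The differences were 0.21 ± 0.11 for Cst8, 0.12 ± 0.08 for Wfdc15a, 0.09 ± 0.14 for Wfdc10, -0.03 ± 0.07 for Eppin, -0.06 ± 0.10 for Cst12, -0.17 ± 0.33 for Cst9 and -0.40 ± 0.47 for Cst11. Wfdc15a lay wholly higher, as did 8% of all genes, and 0 of the 7 lay wholly lower, where 16% of all genes did. The difference of Eppin was 0.0019 under median-ratio scaling, so its direction depended on the scaling. Without HFD_STZ_control_FMT 2 those of Cst9 and Wfdc10 were 0.14 and -0.0040, and without HFD_STZ_control_FMT 3 that of Cst12 was 0.02.

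The direct comparison of the transfers, HFD_STZ_AOS_FMT with HFD_STZ_control_FMT, uses libraries of both preceding comparisons. Of the 7 genes 0 were called and of all genes 3 (0.0216%), with 635 genes (4.58%) and 2 of the 7, Cst11 and Eppin, at an unadjusted p under 0.05. All 7 were higher after transfer from AOS donors, and as they were chosen with these values known, nothing is read from this. The differences were 0.08 ± 0.11 for Cst8, 0.42 ± 0.33 for Cst9, 2.12 ± 0.47 for Cst11, 0.10 ± 0.10 for Cst12, 0.19 ± 0.07 for Eppin, 0.24 ± 0.14 for Wfdc10 and 0.15 ± 0.08 for Wfdc15a. Cst11, Eppin and Wfdc10 lay wholly higher, as did 5.15% of all genes, and 0 lay wholly lower, as did 3.27%. The nearest Cst11 libraries were at 0.89 and 0.29 RPKM. HFD_STZ_AOS_FMT 1 and 3, the libraries high in Cst11, had Gpx5 at 22.2 and 10.0 RPKM, and HFD_STZ_control_FMT had it at 0.08 to 0.26. The part of epididymal RNA in the difference of Cst11 was not tested. With single libraries left out, the differences ran from 0.0022 to 0.22 for Cst8, 0.12 to 0.76 for Cst9, 0.02 to 0.16 for Cst12, 0.16 to 0.34 for Wfdc10 and 0.06 to 0.20 for Wfdc15a. The lowest values of Cst8 and Cst9 came without HFD_STZ_control_FMT 2, those of Cst12 and Wfdc10 without HFD_STZ_control_FMT 3, and that of Wfdc15a without HFD_STZ_AOS_FMT 1. The highest values of Cst8, Cst9 and Cst12 came without HFD_STZ_control_FMT 1. Leaving out the libraries high in Crisp1 turned Cst8 to -0.0073 and took Cst11 out of the test.

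**Figure D5:**
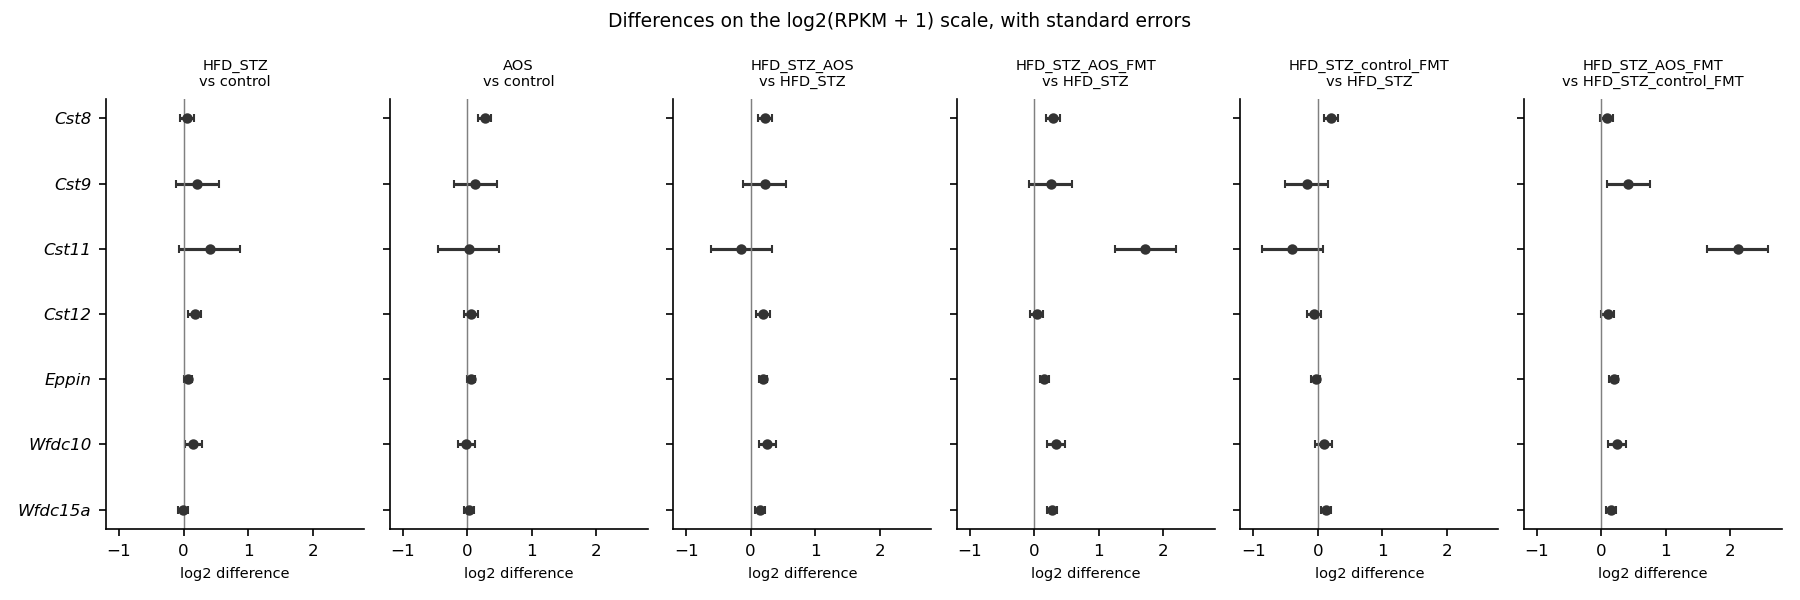
Differences of the 7 genes on the log2(RPKM + 1) scale (horizontal axes) in the 6 comparisons (panels), with points for the estimate and whiskers for its standard error from limma. Cst11 stands apart at 1.72 and 2.12 in the comparisons of HFD_STZ_AOS_FMT, and the other differences are 0.42 or less in size.

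In the F test among all 6 groups, limma called 0 of the 7 genes and 6 of all genes (0.0432%), with 2923 genes (21.1%) and 6 of the 7, all but Cst9, at an unadjusted p under 0.05. The share of log2 variance between groups was 67.1% for Eppin, 66.6% for Cst11, 60.9% for Wfdc10, 56.4% for Wfdc15a, 53.9% for Cst8 and 50.6% for Cst12, where the upper quartile over all genes was 53.0%. The 7 were chosen on these same values, so nothing is read from these shares or from any of the counts of members given with the comparisons.

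Other genes of the inhibitors' pathways were taken from lists written with earlier results of these data known. Of 9 further cystatins tested, limma called 0 in each of the 6 comparisons and in the F test. At an unadjusted p under 0.05 there were 0, 1, 1, 2, 3 and 1 in the order above, of which 0, 1, 1, 1, 1 and 1 were higher. Of all genes, 8.3%, 13.9%, 12.5%, 14.5%, 16.2% and 4.58% had such a p, and nothing is read from these counts. Cst13, a neighbour of Cst8, was at 149.6 ± 0.757 RPKM under AOS and 122.6 ± 8.15 in control (log2 difference 0.29 ± 0.08, limma adjusted p = 0.181), and at 152.4 ± 10.4 in HFD_STZ_AOS and 127.1 ± 9.89 in HFD_STZ (0.26 ± 0.08, limma adjusted p = 0.215). Cst3 averaged 166 ± 44.2 and Cstl1 114 ± 15.7 RPKM (SD over the 18 libraries). Of 11 further WFDC genes tested, limma called 0 throughout. There were 1, 0, 1, 2, 0 and 1 at an unadjusted p under 0.05, all higher, beside the same shares of all genes, and nothing is read from these counts either. The most abundant were Wfdc3 (50.5 ± 3.41), Wfdc6a (18.6 ± 1.96) and Wfdc1 (7.64 ± 1.09).

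Inhibitors of other families and the proteases gave the same count of calls. Of 16 other secreted inhibitors of serine proteases, 11 cathepsins with legumain and 26 serine proteases tested, limma called 0 in each comparison and in the F test. The abundant inhibitors were Spink2 (958 ± 82.8 RPKM), which guards the acrosome of spermatids against its own protease, Serpina5 (61.9 ± 13.4), the protein C inhibitor, and Spint2 (49.8 ± 3.01). Serpina5 was at 68.5 ± 1.495 in HFD_STZ and 44.6 ± 5.60 in control (log2 difference 0.61 ± 0.15, limma adjusted p = 0.276). Ctsl (139.9 ± 13.9), Ctsb (42.8 ± 4.44) and Ctsd (39.1 ± 4.23) led the cathepsins. Ctsd is an aspartic protease and Ctsa, also in the list, a serine protease, so neither is of the kind that cystatins block. The sperm proteases Prss39 (367 ± 19.2), Prss37 (286 ± 18.3) and Acr (186 ± 8.90), the acrosin that penetrates the egg coat, led the serine proteases. In this last list 9, 8, 6, 2, 0 and 0 of 26 genes had an unadjusted p under 0.05 in the 6 comparisons in the order above, where 8.3%, 13.9%, 12.5%, 14.5%, 16.2% and 4.58% of all genes did, and the smallest adjusted p of the list in any comparison was 0.181 (Prss51, AOS against control). Of those 9 serine proteases in HFD_STZ against control 3 were higher, and of the 8 under AOS 4 were. The largest differences from control in that list were of kallikrein genes. Klk1b21, Klk1b22, Klk1b24 and Klk1b27 differed by -1.80, -1.36, -1.88 and -1.74 in HFD_STZ and by -1.53, -1.04, -1.40 and -1.51 under AOS. Of the 8 partners that bind Eppin on sperm and in semen, 4 were tested and limma called 0, with Clu at 507 ± 34.8, Svs5 at 2.91 ± 0.894 and Ltf at 1.13 ± 2.36.

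Of the marker lists, limma called 1 gene in the comparisons of 2 groups, Hsd3b6 of the Leydig cell, which fell between HFD_STZ and HFD_STZ_control_FMT from 29.4 ± 5.13 to 9.69 ± 1.21 RPKM (limma adjusted p = 0.00114). The call was lost in a fit on only the groups compared, which called 0 genes there. The duct, epithelium, Sertoli, spermatogenic and adipose lists had 0 genes called in any comparison.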

How the data were processed

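RNA of 18 testis libraries was sequenced, 3 in each of 6 groups taken from the labels. Bowtie 0.12.2 and mouse build mm10 were used, per the submitters' processing notes. How reads were counted, on which annotation and with which strand setting is not given in the sources used here. RPKM values, rounded to hundredths, are what the authors deposited, in 1 table with a row per symbol that keeps no totals, so depth was only estimated and precision rests on the 3 libraries of a group. Because RPKM divides by a library's total, abundant transcripts shift all others. Of 20985 rows, 6 rows with 3 repeated symbols were left out, which left 20979 genes.

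A filter of 1 RPKM or more in 3 or more libraries left 13874 genes, which were fitted as log2(RPKM + 1) with limma 3.58.1 (R 4.3.3), with a trended prior, 1 coefficient per group and 12 residual and 3.71 prior degrees of freedom. Tests were two-sided, adjusted by Benjamini and Hochberg within a comparison at 0.05, and were tested on simulated data. All 7 members passed the filter. Members and lists were chosen with earlier results of these data known. Named besides the members were the 3 highest genes by mean of each list, any list gene past the threshold and the 5 genes most like each member. Some further genes are named for values given beside a result. Alternatives were median-ratio scaling, no filter, a pseudocount of 0.1, fits on only the groups compared, a replicate block, robust empirical Bayes and each library left out. The omission of 4 libraries high in Crisp1 was chosen after seeing the data. Tables and plots used Python 3.11.15, numpy 2.4.6, scipy 1.17.1 and matplotlib 3.10.9. Positions came from GENCODE vM21 and promoters from RefSeq on GRCm38.p6. Some genes that the rule on likeness picked are not reported here.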

Additional observations from a re-analysis of the deposited data

How the results depend on the processing

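The 42 differences of the 7 genes were recomputed in up to 25 alternatives each. Of 1021 values, 1016 moved by less than 1 SD between replicates and 5 moved by more, all of Cst11: with a pseudocount of 0.1 its differences were 1.28 (HFD_STZ against control), 2.59 (HFD_STZ_AOS_FMT against HFD_STZ) and 3.60 (HFD_STZ_AOS_FMT against HFD_STZ_control_FMT), and without HFD_STZ_AOS_FMT 2 the last pair were 2.48 and 2.87. Many of these values could not move, because each difference is one of 2 group means. Leaving out a library of another group, no filter, the block, robust empirical Bayes and fits on only the groups compared keep those means. The count of small moves is therefore no measure of stability. The sign changed in 30 values of 15 differences, none of which was called. Cst11 was not tested without HFD_STZ 2, HFD_STZ_AOS_FMT 1, HFD_STZ_AOS_FMT 3 or the libraries high in Crisp1, since it then missed the filter, and in fits on only the groups compared it passed for HFD_STZ_AOS_FMT against HFD_STZ alone.

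Counts of called genes were small and moved with the settings, and the cause was not tested. Without a filter they were 1 for HFD_STZ_AOS against HFD_STZ, 16 for HFD_STZ_AOS_FMT against HFD_STZ, 4 for HFD_STZ_control_FMT against HFD_STZ, 11 between the transfers and 18 in the F test. With a pseudocount of 0.1, 4 genes were called for HFD_STZ_AOS_FMT against HFD_STZ. Robust empirical Bayes gave 11 in the F test. Fits on only the groups compared gave 0 for HFD_STZ_control_FMT against HFD_STZ and 6 between the transfers. Without the libraries high in Crisp1, chosen after seeing the data, 2 were called for HFD_STZ_AOS against HFD_STZ and 0 for HFD_STZ_AOS_FMT against HFD_STZ, between the transfers and in the F test. With single libraries left out, calls ranged from 0 to 3 for HFD_STZ against control, 0 to 3 for AOS against control, 0 to 2 for HFD_STZ_AOS against HFD_STZ, 0 to 7 for HFD_STZ_AOS_FMT against HFD_STZ, 1 to 14 for HFD_STZ_control_FMT against HFD_STZ, 0 to 3 between the transfers and 2 to 157 in the F test. The most in the F test came without HFD_STZ_AOS 2 (157). Members called then ranged from 0 to 1 for HFD_STZ_AOS_FMT against HFD_STZ, between the transfers and in the F test, and the 1 was Cst11 without HFD_STZ_AOS_FMT 2. That library is the 1 low library of its group, and Cst11 was chosen and kept by the filter on the values of the others, so nothing is read from that call.

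With the replicate number as a block, 2 genes were called for HFD_STZ_control_FMT against HFD_STZ and 10 in the F test, and the block called 0 of the 7 genes in any comparison. The numbers mark no shared animal, batch or day in the labels, so they were not taken to pair the libraries. Deviations of libraries with the same number had a mean correlation of 0.0458 (-0.246 to 0.411 over 45 pairs, 11 of them over 0.1). For libraries of different groups with different numbers the mean was -0.0225. Of 18 libraries, 11 correlated best with one of their own number, a hint from the data and not from the design. Of the 5 genes most like each member by Spearman's rho, Pearson's r shared 1 for Cst8, 0 for Cst9, 0 for Cst11, 1 for Cst12, 2 for Eppin, 2 for Wfdc10 and 1 for Wfdc15a. Depth limits Cst11 most, where read sampling alone gives a coefficient of variation of 33.0% at its mean of 1.32 RPKM. That mean rests on its 2 high libraries, and at its median of 0.365 RPKM the sampling error is larger.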
